A study of Mus musculus with 8 samples.

Results

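The genes described here are 10 members of the hypoxia-inducible factor (HIF) system, measured by RNA-Seq in primary murine articular chondrocytes. They were picked by an exact match of their symbols among the 54658 gene symbols of the count table, and all 10 were found. They are the HIF subunits *Hif1a*, *Epas1* and *Arnt*, the ubiquitin ligase component *Vhl*, the prolyl hydroxylases *Egln1*, *Egln2* and *Egln3*, and the hypoxia-inducible genes *Bnip3*, *Ankrd37* and *Car12*. The cells were digested from the femoral head cartilage of wild-type mice aged 3 weeks, grown in high-glucose medium, and given either IL-1β at 1 ng/mL or vehicle for 24 h, with 4 samples in each group. The oxygen level of the cultures and the number of mice behind each sample are not given in the sources used here, so that the p-values below measure the spread between these samples, which may be technical. The comparison asks how the oxygen-sensing genes of these cells stood after exposure to a proinflammatory cytokine.

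HIF is a pair of proteins, an alpha subunit (HIF-1α from *Hif1a*, or HIF-2α from *Epas1*) and the shared beta subunit ARNT. In the presence of oxygen the EGLN enzymes, also called PHDs, hydroxylate prolines of the alpha subunit, the VHL protein binds the hydroxylated form, and the alpha subunit is degraded. When oxygen is low the alpha subunit accumulates, enters the nucleus and binds DNA at a short core of A or G followed by CGTG. Cartilage has no blood vessels, and its chondrocytes live at low oxygen. HIF-1α is known for keeping growth plate chondrocytes alive and for glycolysis, and HIF-2α for inducing matrix-degrading enzymes in osteoarthritis models. Because the alpha subunits are controlled largely as proteins, the mRNA abundances below do not measure the amount or activity of HIF.

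The total per sample was 10992355 to 17456063 counts. A smallest abundance of 3 counts corresponds to 0.172 to 0.273 CPM, in which each count is set against the total of its sample, for counting error only. Abundances are CPM scaled by the trimmed mean of M-values (TMM), with factors of 0.984 to 1.01. A gene was said to rise or fall when edgeR's quasi-likelihood test gave a Benjamini-Hochberg adjusted p-value under 0.05 over the 14404 genes tested, and was called a DEG when its log2 fold change was in addition above 1 or below -1. A single noncoding gene, *Gm26917*, took 13.8 to 14.6% of the counts after IL-1β and 13.2 to 13.9% with vehicle. All 10 chondrocyte markers were present and all 10 fell, from a summed abundance of 16616 to 17257 CPM with vehicle to 4308 to 4721 CPM after IL-1β. For this and the marker counts below, the shares over all genes tested were 20.4% that rose and 19.8% that fell. In bulk samples, fewer cells of a type and less RNA per cell cannot be told apart. The 7 endothelial markers summed to 1.06 to 1.66 CPM after IL-1β and 0.865 to 1.78 CPM with vehicle, and none passed the filter on low counts. The 7 leukocyte markers summed to 29.9 to 33.5 CPM against 14.8 to 16.8 CPM. Of these, *Cd68* and *Cd14* rose and *Lyz2* fell, the other 4 did not pass the filter, and the defining markers *Ptprc*, *Csf1r* and *Adgre1* stayed at means of 0.0323 to 0.938 CPM in both groups. Of 6 osteoblast markers, 4 were tested and all 4 fell, with sums of 30.1 to 37.2 CPM against 95.2 to 107.9 CPM. The part of these shifts in the results below was not tested.

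After IL-1β, 8 of the 10 genes rose, *Car12* fell, and *Arnt* did not pass the test. Each of the 10 passed the filter on low counts. Among all genes tested, 20.4% rose and 19.8% fell. Only *Egln3* was a DEG, at 3.83-fold, where 2.86% of all genes tested were upregulated and 2.35% were downregulated DEGs. *Bnip3* and *Egln1* lay just under the 2-fold threshold, at 1.94-fold and 1.91-fold. In 8 genes all 4 IL-1β samples lay above all 4 vehicle samples, against 18.7% of all genes tested, and in *Car12* all lay below, against 18.2%. The median log2 fold change of the 10 genes was 0.60 and that of all genes tested was -0.0012.

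**Figure D1:**
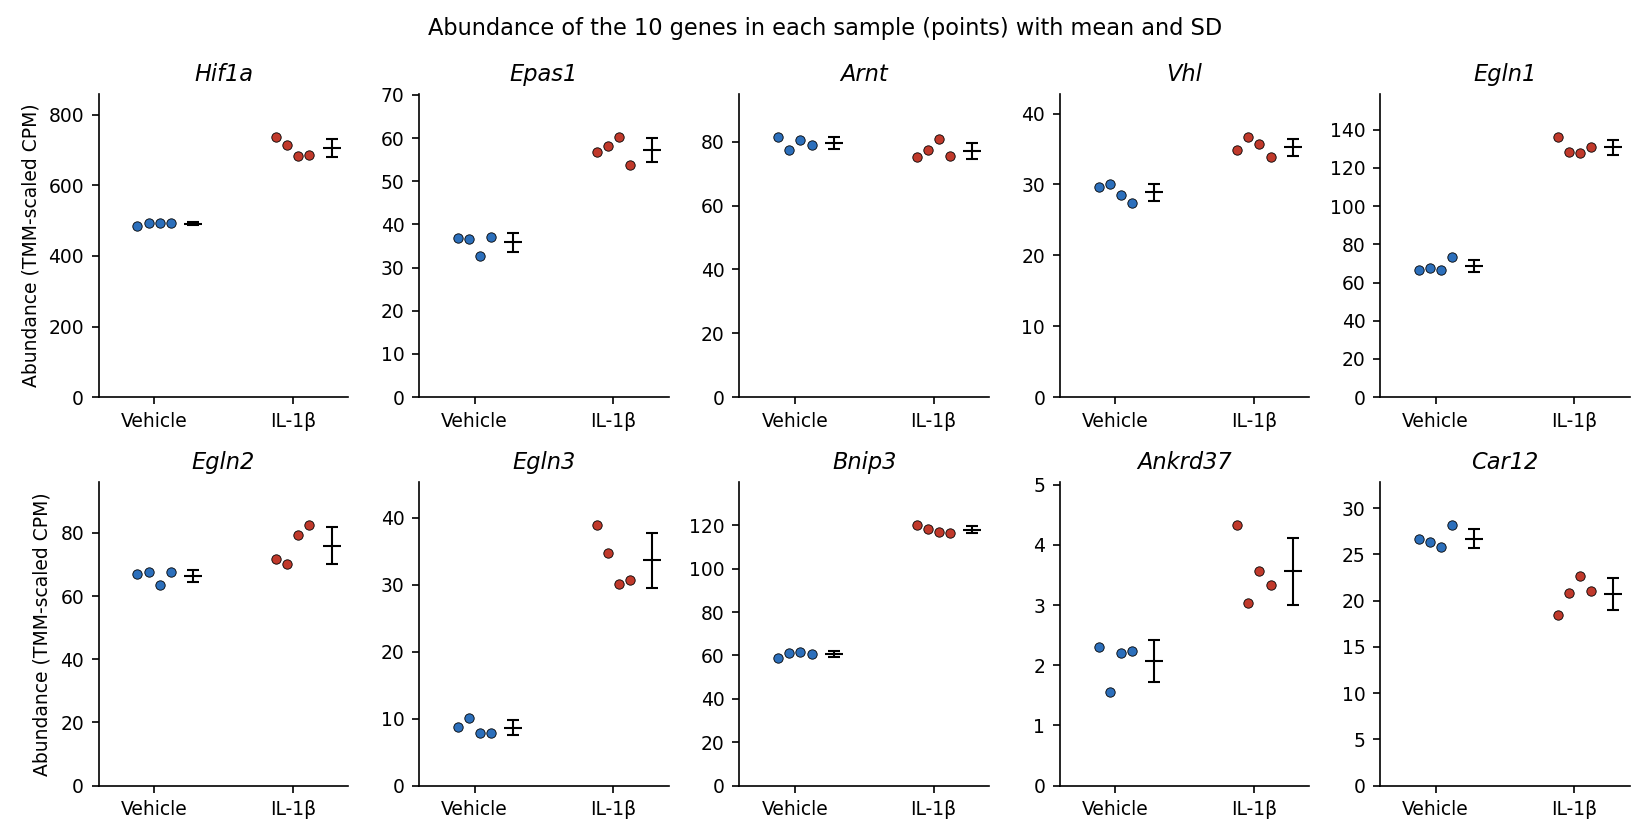
Abundance of each of the 10 genes (y axis, TMM-scaled CPM, from 0) in the 4 vehicle (blue) and 4 IL-1β samples (red), in the order of their replicate numbers, with the mean and SD beside the points. The groups overlap only for *Arnt*, and only in *Car12* do all IL-1β samples lie below all vehicle samples.

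*Hif1a* (ENSMUSG00000021109.13, GRCm38 chromosome 12, 73901375 to 73947530, plus strand) encodes the HIF-1α subunit. Its abundance was 737, 715, 683 and 685 CPM in the IL-1β samples and 486, 492, 494 and 493 CPM in the vehicle samples. The vehicle samples were nearly level, and every IL-1β sample stood clearly above them. The means were 705 ± 25.7 CPM (SD, n = 4) and 491 ± 3.71 CPM (SD, n = 4), a log2 fold change of 0.52 (SE, the standard error, 0.0309; adjusted p = 2.63e-14), or 1.44-fold. Of its exon bases, 8.11% are shared with annotated neighbours, one of which, the opposite-strand gene *Gm15283*, rose from 6.32 ± 0.683 to 9.44 ± 0.437 CPM. The other, *Gm49321*, was listed at 0.

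*Epas1* (ENSMUSG00000024140.10, chromosome 17, 86753700 to 86833410, plus strand) encodes the HIF-2α subunit. It had 56.8, 58.1, 60.3 and 53.8 CPM after IL-1β and 36.8, 36.7, 32.7 and 37.2 CPM with vehicle. The groups were well apart, with vehicle replicate 3 the lowest sample. *Epas1* rose from 35.9 ± 2.14 to 57.3 ± 2.70 CPM (SD, n = 4), a log2 fold change of 0.67 (SE 0.0481, adjusted p = 1.65e-12). *Epas1* is also known as an endothelial gene, and the endothelial markers in these samples were near 0, as given above.

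The alpha subunits differed widely in level. Per unit of length, as TPM (counts per base of exon, scaled to the same sum in each sample) computed from the deposited counts and gene lengths, *Hif1a* had 324 ± 21.5 TPM after IL-1β and 233 ± 5.66 TPM with vehicle. *Epas1* had 27.8 ± 1.50 TPM and 17.9 ± 1.03 TPM, and so stood at 8.57 ± 0.525% of *Hif1a* after IL-1β and at 7.70 ± 0.486% with vehicle. The log2 ratio of *Epas1* to *Hif1a* was -3.62, -3.54, -3.43 and -3.59 after IL-1β and -3.65, -3.67, -3.84 and -3.65 with vehicle. The groups did not overlap, but the closest samples of the groups nearly met. The mean log2 ratio was higher by 0.155 after IL-1β (p = 0.0286 by a two-sided exact permutation test, the lowest value that groups of 4 can give).

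*Arnt* (ENSMUSG00000015522.18, chromosome 3, 95434388 to 95497240, plus strand), the beta subunit that both alpha subunits need, had 75.3, 77.4, 80.7 and 75.4 CPM after IL-1β and 81.5, 77.3, 80.4 and 78.9 CPM with vehicle. The groups overlapped. The log2 fold change was -0.04 (SE 0.038, 95% interval -0.12 to 0.038, adjusted p = 0.439), an interval that holds only small differences in either direction. *Hif1a* accordingly had 12.4 ± 0.738 times the TPM of *Arnt* after IL-1β and 8.39 ± 0.235 times with vehicle.

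*Vhl* (ENSMUSG00000033933.13, chromosome 6, 113623959 to 113631633, plus strand) encodes the protein that recognises hydroxylated HIF-α. It had 34.9, 36.7, 35.6 and 33.8 CPM after IL-1β and 29.6, 30.1, 28.5 and 27.4 CPM with vehicle. Every IL-1β sample was higher, by a modest step. The rise from 28.9 ± 1.20 to 35.3 ± 1.22 CPM (SD, n = 4) gave a log2 fold change of 0.29 (SE 0.0511, adjusted p = 3.82e-05), or 1.22-fold.

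The EGLN enzymes use oxygen, iron and 2-oxoglutarate to hydroxylate HIF-α. EGLN1 (PHD2) is known as the main oxygen sensor in most cells, and *Egln1* and *Egln3* are themselves known HIF targets, which makes them a feedback arm of the pathway. *Egln3* (ENSMUSG00000035105.5, chromosome 12, 54178981 to 54203860, minus strand) had 38.8, 34.8, 30.1 and 30.7 CPM after IL-1β and 8.71, 10.2, 7.92 and 7.82 CPM with vehicle. Its lowest IL-1β sample stood well above its highest vehicle sample. The means were 33.6 ± 4.05 and 8.65 ± 1.09 CPM (SD, n = 4), a log2 fold change of 1.94 (SE 0.088, adjusted p = 5.48e-17). Of the 14404 genes tested, 128 had a higher log2 fold change.

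*Egln1* (ENSMUSG00000031987.6, chromosome 8, 124908587 to 124949324, minus strand) had 136, 128, 128 and 131 CPM after IL-1β and 66.3, 67.8, 66.7 and 73.3 CPM with vehicle. The samples of each group lay close together and the groups far apart. The log2 fold change was 0.93 (SE 0.0376, 95% interval 0.86 to 1.01, adjusted p = 3.25e-18), with means of 130.9 ± 3.87 and 68.5 ± 3.23 CPM. *Egln2* (ENSMUSG00000058709.11, chromosome 7, 27158658 to 27166802, minus strand), which encodes PHD1, had 71.9, 70.1, 79.5 and 82.4 CPM after IL-1β and 67.0, 67.7, 63.6 and 67.5 CPM with vehicle. IL-1β replicates 1 and 2 were only slightly above the vehicle samples. Its log2 fold change of 0.20 (SE 0.0461, adjusted p = 0.00104) was the smallest among the 9 genes that passed the test.

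The summed TPM of the *Egln* genes was 206 ± 9.17 after IL-1β and 128.8 ± 3.18 with vehicle, and its makeup shifted. *Egln3* made up 18.7, 17.7, 15.0 and 14.9% of the sum after IL-1β and 7.16, 8.15, 6.72 and 6.19% with vehicle. No sample of one group came near the other. The mean share was 16.6 ± 1.90% against 7.06 ± 0.83%, higher by 9.51 percentage points (two-sided exact permutation p = 0.0286, again the lowest possible). *Egln2* was the most abundant of the family with vehicle, at 51.5 ± 0.666%, and made up 35.6 ± 2.63% after IL-1β. *Egln1* took the first place after IL-1β, at 47.8 ± 0.738% against 41.4 ± 1.30% with vehicle. The change of first place depends on the scaling by gene length (3594 bases for *Egln1*, 2800 for *Egln2*). As CPM, which are not scaled by length, *Egln1* (68.5 ± 3.23) and *Egln2* (66.5 ± 1.92) overlapped with vehicle.

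**Figure D2:**
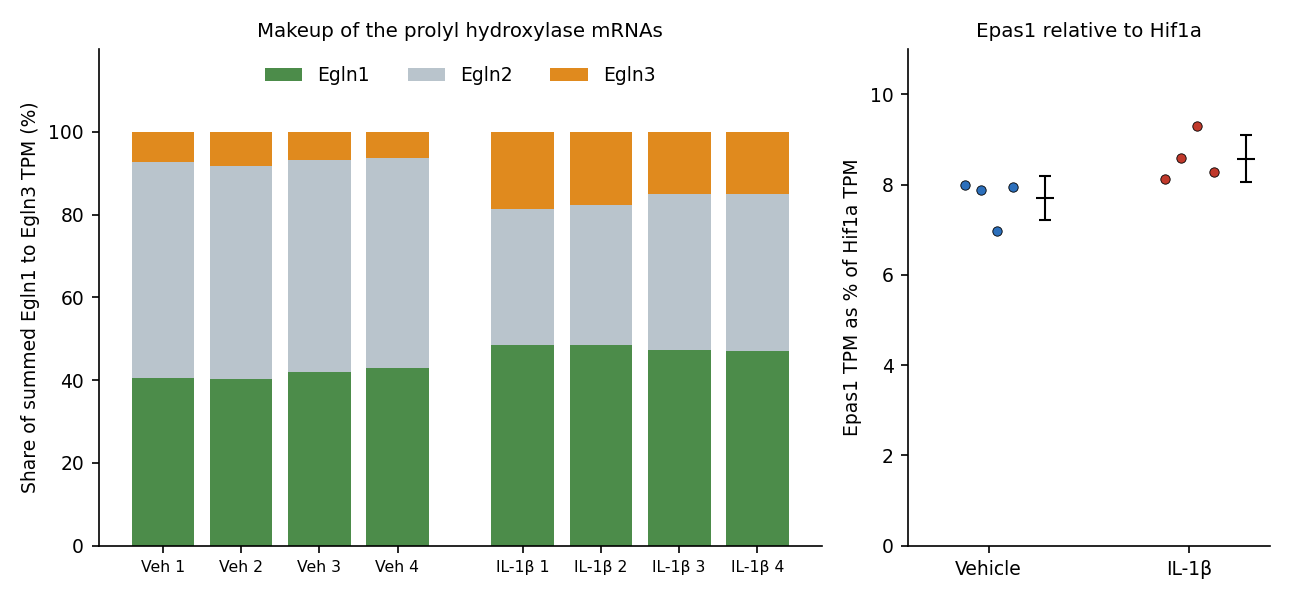
Left, the share of *Egln1*, *Egln2* and *Egln3* in their summed TPM (y axis, percent) in each sample, where the *Egln3* share is 6.19 to 8.15% with vehicle and 14.9 to 18.7% after IL-1β. Right, the TPM of *Epas1* as a percentage of that of *Hif1a*, with the mean and SD beside the 4 samples of each group, at 7.70% with vehicle and 8.57% after IL-1β.

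*Bnip3* (ENSMUSG00000078566.8, chromosome 7, 138890836 to 138909519, minus strand) encodes a mitochondrial receptor for mitophagy, the removal of mitochondria by autophagy, and is a classic HIF-1 target. It had 119.9, 118, 117 and 116 CPM after IL-1β and 59.0, 61.4, 61.6 and 60.6 CPM with vehicle. The spread within each group was small beside the distance between them. The log2 fold change was 0.96 (SE 0.0353, 95% interval 0.89 to 1.03, adjusted p = 3.50e-19), with means of 117.9 ± 1.65 and 60.6 ± 1.20 CPM. Of its exon bases, 22.3% overlap the opposite-strand gene *Gm45507*, which was listed at 0 in all 8 samples.

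*Ankrd37* (ENSMUSG00000050914.16, chromosome 8, 45996902 to 46005707, minus strand), an ankyrin repeat gene known to be induced by hypoxia, rested on few reads. The IL-1β samples held 48, 42, 60 and 47 reads (4.33, 3.03, 3.56 and 3.33 CPM) and the vehicle samples 40, 27, 31 and 34 reads (2.31, 1.56, 2.21 and 2.23 CPM). The groups did not overlap after scaling, although vehicle replicate 2 stood apart below the rest. The log2 fold change of 0.77 had a wide error (SE 0.178, 95% interval 0.41 to 1.13, adjusted p = 0.000826). Of its exon bases, 26.4% are shared with the opposite-strand genes *Lrp2bp* and *Ufsp2*, and whether the counting used strand is not given in the sources used here. *Ufsp2* had 25.2 ± 2.82 CPM after IL-1β and 24.2 ± 0.423 CPM with vehicle (adjusted p = 0.644), and *Lrp2bp* had 0.419 ± 0.203 against 0.511 ± 0.0914 CPM.

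*Car12* (ENSMUSG00000032373.15, chromosome 9, 66713686 to 66766845, plus strand) encodes a membrane carbonic anhydrase that faces the outside of the cell and takes part in pH control. It had 18.5, 20.8, 22.7 and 21.1 CPM after IL-1β and 26.7, 26.3, 25.7 and 28.1 CPM with vehicle. All IL-1β samples were below all vehicle samples. *Car12* fell by 0.35 on the log2 scale (SE 0.0627, adjusted p = 3.47e-05), from 26.7 ± 1.02 to 20.7 ± 1.74 CPM (SD, n = 4).

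**Figure D3:**
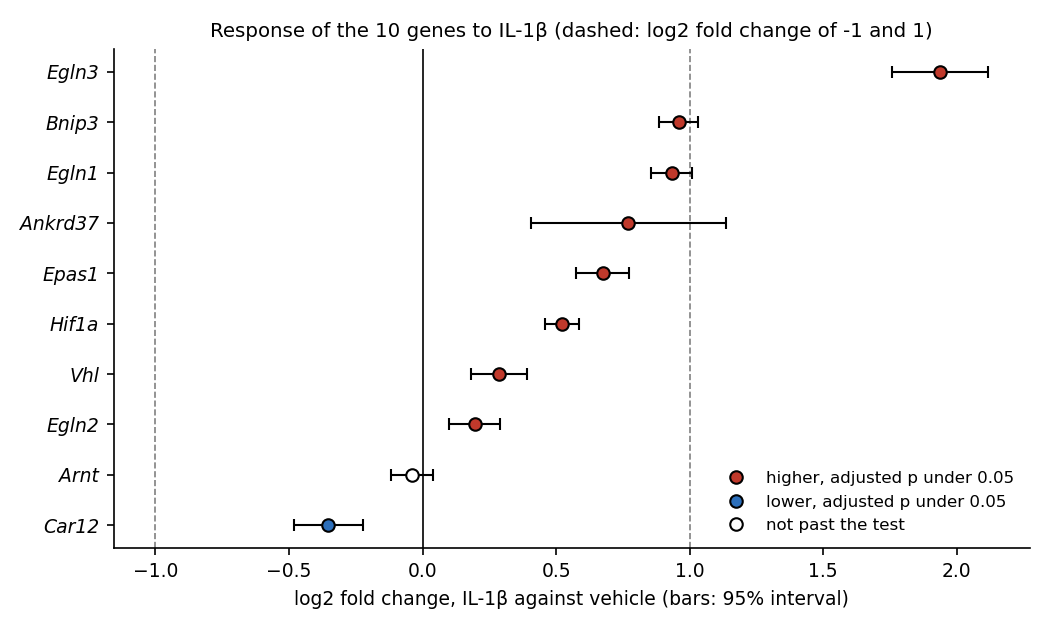
Log2 fold change of each of the 10 genes, IL-1β against vehicle, with its 95% interval from edgeR's quasi-likelihood fit (x axis; dashed lines at -1 and 1). *Egln3* alone lies beyond 1, at 1.94, the intervals of *Bnip3*, *Egln1* and *Ankrd37* reach across it, and *Car12* is at -0.35.

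The promoters of the hydroxylases (for *Egln2*, the start site with more matches) and of *Bnip3*, *Ankrd37* and *Car12* are shown because they hold the short core that HIF binds, or lack it. They run from 250 bases before to 50 bases after the RefSeq start site on GRCm38.p6, and capitals mark each ACGTG or GCGTG on either strand (CACGT or CACGC where it lies on the other strand). Of the 10 genes, 9 matched the promoter table, with 2 start sites for *Egln2*. *Epas1* had no entry. The promoter of *Ankrd37*, like that of *Hif1a*, lies inside the longer GENCODE span of its gene.
Egln3, chr12:54203825-54204124, minus strand: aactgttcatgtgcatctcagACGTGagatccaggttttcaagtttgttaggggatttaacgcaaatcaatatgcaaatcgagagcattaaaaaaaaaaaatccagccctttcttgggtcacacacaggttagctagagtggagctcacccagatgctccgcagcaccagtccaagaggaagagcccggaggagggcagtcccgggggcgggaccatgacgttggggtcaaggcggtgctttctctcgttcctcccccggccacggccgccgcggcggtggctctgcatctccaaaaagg
Egln1, chr8:124949205-124949504, minus strand: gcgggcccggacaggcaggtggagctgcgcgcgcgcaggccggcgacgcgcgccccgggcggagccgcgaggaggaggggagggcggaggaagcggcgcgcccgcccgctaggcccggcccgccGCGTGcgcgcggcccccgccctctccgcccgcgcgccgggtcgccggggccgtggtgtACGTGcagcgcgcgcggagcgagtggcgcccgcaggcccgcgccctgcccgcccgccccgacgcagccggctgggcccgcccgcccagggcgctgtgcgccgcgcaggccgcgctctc
Egln2, chr7:27166753-27167052, minus strand: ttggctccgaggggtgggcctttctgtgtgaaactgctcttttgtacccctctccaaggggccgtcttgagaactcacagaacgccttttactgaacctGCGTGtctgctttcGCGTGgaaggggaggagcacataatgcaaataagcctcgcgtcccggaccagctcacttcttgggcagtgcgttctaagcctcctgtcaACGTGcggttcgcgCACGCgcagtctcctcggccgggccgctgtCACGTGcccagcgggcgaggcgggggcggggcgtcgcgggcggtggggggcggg
Bnip3, chr7:138909457-138909756, minus strand: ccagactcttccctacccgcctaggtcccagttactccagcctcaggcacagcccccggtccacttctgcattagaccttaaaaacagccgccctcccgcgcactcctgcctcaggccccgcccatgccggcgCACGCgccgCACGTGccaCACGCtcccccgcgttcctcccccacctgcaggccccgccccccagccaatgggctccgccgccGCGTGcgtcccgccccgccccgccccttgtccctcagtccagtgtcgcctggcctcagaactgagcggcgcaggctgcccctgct
Ankrd37, chr8:45999801-46000100, minus strand: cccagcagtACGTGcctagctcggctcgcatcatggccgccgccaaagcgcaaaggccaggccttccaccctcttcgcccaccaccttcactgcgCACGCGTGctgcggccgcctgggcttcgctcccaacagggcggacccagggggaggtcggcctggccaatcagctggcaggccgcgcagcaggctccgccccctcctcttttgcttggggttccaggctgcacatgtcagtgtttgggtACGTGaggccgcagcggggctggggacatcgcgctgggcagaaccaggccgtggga
Car12, chr9:66713436-66713735, plus strand: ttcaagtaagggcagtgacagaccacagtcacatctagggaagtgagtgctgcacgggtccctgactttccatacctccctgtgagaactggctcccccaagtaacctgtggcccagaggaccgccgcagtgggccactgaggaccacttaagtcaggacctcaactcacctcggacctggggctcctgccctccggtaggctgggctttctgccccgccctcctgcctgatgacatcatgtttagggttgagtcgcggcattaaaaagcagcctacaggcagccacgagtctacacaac

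The core was found in 7 of the 9 genes with a promoter (77.8%), in 43.8% of all 32851 promoters of the table and in 61.9% of the 12732 promoters of tested genes. The promoter of *Bnip3* held 5 matches, 4 of them from -117 to -95 counted from the start site (with -1 the base before it). This stretch has a CACGTG, which counts as ACGTG on both strands and is also the E-box of other factors. *Ankrd37* held 4 matches, from -241 to -237, from -155 to -148, where 2 matches share bases, and from -6 to -2. Promoters with at least 4 matches made up 3.86% of the table, and their share among the promoters of tested genes was not computed. *Egln1* held 2 matches, in a window of 86.0% GC, and *Egln3* held 1, from -229 to -225. *Hif1a* held 3 matches, *Arnt* 1, and the start sites of *Egln2* 6 and 1. *Car12*, the gene that fell, and *Vhl*, which rose, held none. A match is a match of letters in this window and not a binding site.

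In order of level per length, the vehicle samples had *Hif1a* first, then *Bnip3* (74.9 ± 2.28 TPM), *Egln2* (66.4 ± 2.24 TPM) and *Egln1* (53.3 ± 1.03 TPM), with no overlap between neighbours. *Arnt* (27.8 ± 1.19 TPM) and *Vhl* (27.0 ± 1.76 TPM) overlapped, *Epas1* came next, *Car12* (9.83 ± 0.204 TPM) and *Egln3* (9.11 ± 1.26 TPM) overlapped, and *Ankrd37* (3.78 ± 0.633 TPM) came last. With IL-1β the order was *Hif1a*, *Bnip3* (141 ± 6.15 TPM), *Egln1* (98.7 ± 5.45 TPM) and *Egln2* (73.4 ± 3.99 TPM), again without overlap. *Egln3* moved up to 34.3 ± 5.18 TPM, where it overlapped *Vhl* (31.9 ± 1.60 TPM). *Epas1* overlapped *Arnt* (26.1 ± 0.79 TPM), and *Car12* (7.39 ± 0.437 TPM) overlapped *Ankrd37* (6.28 ± 1.11 TPM).

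Calls in the remaining oxygen-sensing machinery were about as frequent as among all genes tested. The list held 13 further genes, for HIF subunits, HIF-α hydroxylation, the VHL ligase complex, other ubiquitin ligases, HIF coactivators and *Cited2*. Of these, 12 were tested, 4 rose, 1 fell and 7 did not pass the test. Their median log2 fold change was 0.028, where 20.4% of all genes tested rose and 19.8% fell. *Arnt2*, a relative of *Arnt*, was the only DEG of the list. It had 5.59, 4.90, 6.95 and 5.53 CPM after IL-1β and 2.02, 1.50, 2.71 and 2.37 CPM with vehicle (log2 fold change 1.45, SE 0.168, adjusted p = 3.76e-08). Per length it stayed low, at 2.02 ± 0.272 TPM after IL-1β and 0.781 ± 0.185 TPM with vehicle. *Cited2*, which competes with HIF-α for its coactivators, rose from 364 ± 11.4 to 450 ± 22.6 CPM (log2 fold change 0.31, adjusted p = 2.96e-08). *Cul2*, the cullin of the VHL ligase, fell by 0.21 on the log2 scale (adjusted p = 0.000159). *Hif1an*, the asparagine hydroxylase of HIF-α, named after its values were seen, had 44.1 ± 1.63 and 42.9 ± 2.93 CPM (adjusted p = 0.619). *Hif3a* had 3 to 10 reads per sample and was not tested.

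Hypoxia-inducible genes outside the 10 mostly rose, as *Bnip3* and *Ankrd37* did and *Car12* did not. Of 20 such genes outside glycolysis, 16 rose, 3 fell and 1 did not pass the test, and the median log2 fold change was 0.48. Over all genes tested, 20.4% rose and 19.8% fell. The DEGs were *Adm*, *Lox*, *Hmox1* and *Car9*. *Adm*, which encodes the peptide hormone adrenomedullin, had 6.58, 6.85, 5.58 and 6.95 CPM after IL-1β and 2.19, 1.62, 2.00 and 2.04 CPM with vehicle (log2 fold change 1.72, adjusted p = 1.20e-10). *Lox*, the collagen crosslinking enzyme, rose from 399 ± 7.07 to 1149 ± 22.2 CPM (log2 fold change 1.53), and *Hmox1*, heme oxygenase, from 367 ± 7.22 to 850 ± 66.1 CPM (log2 fold change 1.21). *Hmox1* is also a target of the oxidative stress factor NRF2. The 3 genes that fell were *Plod2* and *P4ha1*, which hydroxylate collagen, and *Stc2*, named after its values were seen. *Plod2* fell from 385 ± 11.8 to 305 ± 5.32 CPM (log2 fold change -0.33, adjusted p = 9.46e-10), and *P4ha1* from 492 ± 11.1 to 417 ± 10.4 CPM (log2 fold change -0.24, adjusted p = 2.91e-07). In both, all IL-1β samples were below all vehicle samples.

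Glycolytic genes moved with them. Of 20 hypoxia-inducible genes for glucose uptake, glycolysis and lactate export, 17 rose, *Aldoc* fell and 2 did not pass the test. Their median log2 fold change was 0.51, where 20.4% of all genes tested rose and 19.8% fell. *Slc16a3*, the lactate exporter MCT4, was the only DEG of the list and had 295, 277, 294 and 302 CPM after IL-1β and 111, 114, 114 and 122 CPM with vehicle (log2 fold change 1.34, adjusted p = 9.10e-23). *Pfkfb3*, which makes an activator of glycolysis, rose from 114 ± 3.08 to 213 ± 2.32 CPM (log2 fold change 0.90, adjusted p = 3.03e-20). *Aldoc* fell from 12.7 ± 1.21 to 9.94 ± 0.748 CPM (adjusted p = 0.00335). The genes of this list that rose had log2 fold changes of at most 1.34, so that their steps were broad rather than large.

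Mitophagy genes related to *Bnip3* showed a similar but smaller shift, with 6 of 10 rising and none falling. Their median log2 fold change was 0.19, where 20.4% of all genes tested rose and 19.8% fell. *Bnip3l*, the paralog of *Bnip3*, rose by nearly the same step as *Bnip3*, with 229, 228, 216 and 217 CPM against 114, 121, 121 and 114 CPM (log2 fold change 0.92, SE 0.0326, adjusted p = 1.48e-19). *Sqstm1*, the autophagy receptor p62, rose from 815 ± 12.6 to 1290 ± 25.9 CPM (log2 fold change 0.66, adjusted p = 9.09e-18).

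The carbonic anhydrases split. Of 14 others, 6 were tested, of which 3 rose and *Car5b* fell (log2 fold change -0.19, adjusted p = 0.0405). Over all genes tested, 20.4% rose and 19.8% fell. *Car9*, the other hypoxia-inducible carbonic anhydrase of the cell surface, moved opposite to *Car12*. It had 21.8, 22.8, 22.0 and 21.8 CPM after IL-1β and 9.98, 11.6, 10.5 and 9.86 CPM with vehicle (log2 fold change 1.07, SE 0.0758, adjusted p = 1.32e-12). Per length, *Car9* had 26.0 ± 1.00 TPM after IL-1β and 12.7 ± 1.13 TPM with vehicle, above *Car12* in both groups. *Car13*, a cytosolic form, rose from 1.21 ± 0.0834 to 4.79 ± 0.35 CPM (log2 fold change 1.98, adjusted p = 1.13e-10). The call on *Car5b* was lost with DESeq2 in place of edgeR (adjusted p = 0.092), with 1 RUVs factor as a covariate (adjusted p = 0.0938), without the filter on low counts (adjusted p = 0.052), without *Gm26917* in the totals (adjusted p = 0.0505) and when any sample other than IL-1β replicate 3 or vehicle replicate 4 was left out (adjusted p of 0.0571 to 0.129).

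**Figure D4:**
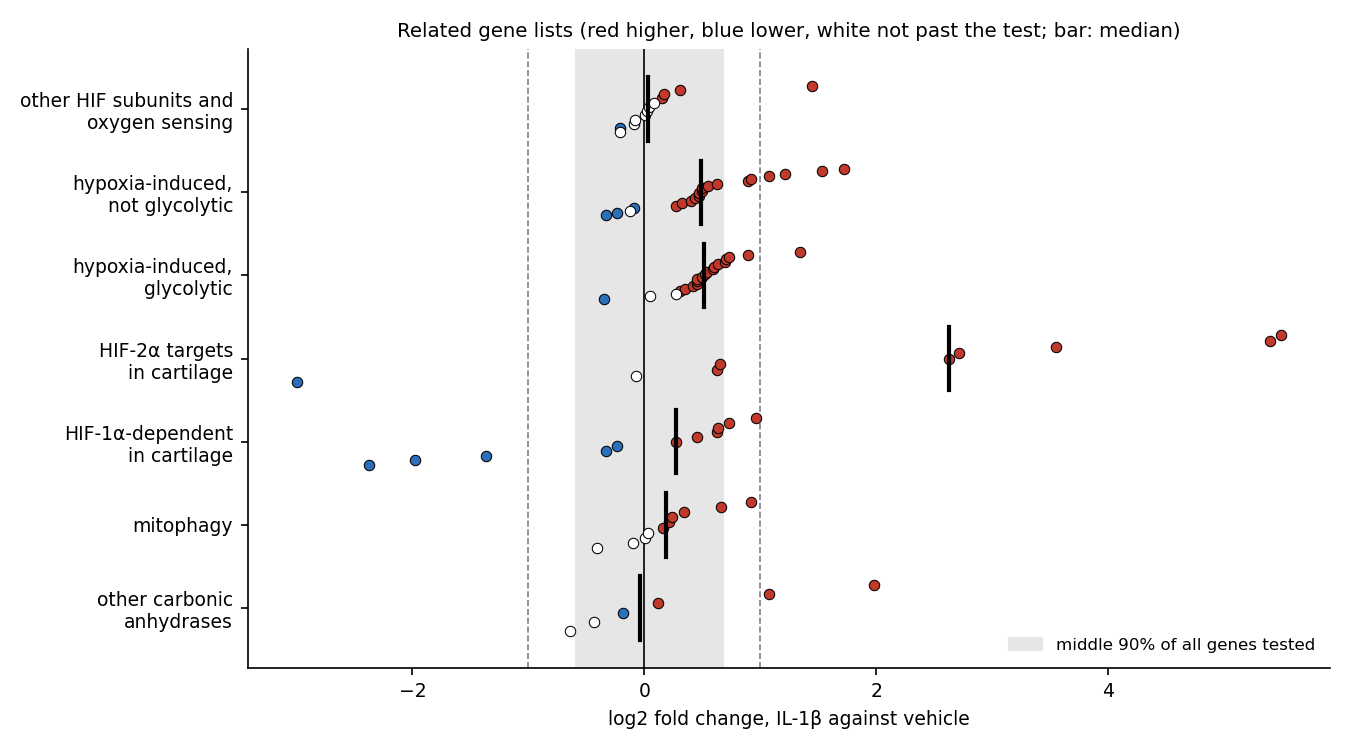
Log2 fold change (x axis, IL-1β against vehicle) of each tested gene in the 7 related lists, coloured by its direction where it passed the test and white where it did not, with the list median as a bar and the middle 90% of all genes tested (-0.59 to 0.68) in grey. The medians of the hypoxia-induced lists lie at 0.48 and 0.51, and the list of HIF-2α targets spreads widest, from -2.996 to 5.48.

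In cartilage, the alpha subunits are known for different downstream genes. Of 13 genes named as HIF-2α targets in cartilage, 9 were tested, 7 rose, *Col10a1* fell and *Ptgs2* did not pass the test (367 ± 8.11 against 385 ± 9.27 CPM, adjusted p = 0.0793, named after its values were seen). Over all genes tested, 20.4% rose and 19.8% fell. Some genes of this HIF-2α list are also known targets of NF-κB signaling, and the part of *Epas1* in the list was not tested. *Nos2*, the inducible nitric oxide synthase, rose from 1.57 ± 0.259 to 67.2 ± 4.52 CPM (log2 fold change 5.40, adjusted p = 1.54e-27). *Slc39a8*, the zinc importer ZIP8, rose from 6.36 ± 0.45 to 39.2 ± 2.15 CPM (log2 fold change 2.63, adjusted p = 3.54e-22). The matrix metalloproteinases *Mmp3* and *Mmp13* rose with log2 fold changes of 5.48 and 2.71. *Mmp12* is also counted among the 7, but it held 2 to 6 reads per vehicle sample and 36 to 61 after IL-1β, so that it passed the filter through the IL-1β samples alone. The count of genes that rose was 6 when a CPM above 1 was asked of all 8 samples. It was 8 without the filter on low counts, and 8 without *Gm26917* in the totals. *Col10a1*, the collagen of hypertrophic chondrocytes, fell from 101.4 ± 4.16 to 12.6 ± 0.983 CPM (log2 fold change -2.996, adjusted p = 9.44e-27). *Mmp9* and *Adamts4* held 3 to 14 reads per sample in both groups, *Mmp1a* was listed at 0, and *Il6* had 14 to 26 reads after IL-1β and 0 reads in each vehicle sample.

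Of 11 genes named as HIF-1α-dependent in cartilage, 6 rose and 5 fell, all past the test. The shares over all genes tested were 20.4% that rose and 19.8% that fell. Those that rose had *Bnip3* and *Slc2a1*, the glucose transporter GLUT1, at the top (log2 fold changes of 0.96 and 0.73). The others were *Pdk1*, *Vegfa*, *Pgk1* and *P4ha2*. Of the genes for collagen hydroxylation in this list, only *P4ha2* rose (log2 fold change 0.27). *Slc2a1* went from 347 ± 12.4 to 575 ± 13.9 CPM (adjusted p = 3.35e-17). Those that fell were *P4ha1*, *Plod2* and the chondrocyte genes *Acan*, *Col2a1* and *Sox9*, with log2 fold changes of -2.37, -1.98 and -1.37. The last 3 belong to the chondrocyte markers, all of which fell. *P4ha1*, *P4ha2* and *Plod2*, *Vegfa*, *Pdk1*, *Pgk1*, *Slc2a1*, *Bnip3l* and *Car9* stand in more than one of these lists, so that the counts are not independent of each other.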

How the data were processed

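RNA-Seq was performed on articular chondrocytes of the mouse, 4 samples per treatment (IL-1β or vehicle). The authors trimmed reads with cutadapt, aligned them with STAR to mm10 (GENCODE vM20), counted them with featureCounts and deposited whole-number counts per gene symbol. STAR is 2.4.2a in the submitters' processing notes, and the methods name another version. Whether the counts precede or follow the batch correction by RUVseq is not stated. The gene lengths deposited beside the counts (unit: other) were used for TPM and matched GENCODE vM21 for all 10 genes.

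Samples were grouped by their titles. Genes that exceeded a CPM of 1 in 4 or more samples were tested with edgeR 4.0.16 (glmQLFTest, TMM, treatment as the only term; limma 3.58.1, R 4.3.3), after the code was tested on simulated data. Standard errors are the log2 fold change over the root of F, and intervals use the t distribution. Ratios were tested by exact permutation in Python 3.11.15 (scipy 1.17.1, numpy 2.4.6, pandas 2.3.3; figures with matplotlib 3.10.9). The alternatives were DESeq2 1.42.0, DESeq2's size factors, total library size, other filters, the replicate number as a block, 1 RUVs factor, glmTreat and each sample left out. Named genes are the 10 members and, in each list, the DEGs plus up to 2 largest rises and 2 largest falls, and exceptions are marked. The members and lists were chosen with earlier results of these data known, so counts over them are descriptions. Protein sequences were not analysed here. Totals were 10992355 to 17456063 counts.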

Additional observations from a re-analysis of the deposited data

Results flagged for a closer look

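Among 78 sets of 4 values (the 10 genes, the named genes of the related lists, the total counts and both ratios, in either group), 5 had 1 extreme sample whose gap to the next, as a part of the whole range, passed the limit of Dixon's test at 95%. Chance alone marks about 1 in 20 such sets, which is 3.9 of 78. Vehicle replicate 3 was the lowest sample in 3 of these. The ratio of *Epas1* to *Hif1a* shares its *Epas1* counts with the *Epas1* set, so these sets are not independent. *Epas1* had 32.7 CPM there, against 36.7 to 37.2 CPM in the other vehicle samples, *Egln2* had 63.6 CPM against 67.0 to 67.7 CPM, and the log2 ratio of *Epas1* to *Hif1a* was -3.84 against -3.67 to -3.65. *Ankrd37* had 1.56 CPM in vehicle replicate 2, which is 27 reads, against 2.21 to 2.31 CPM. For *Nos2*, IL-1β replicate 1 was the highest at 73.9 CPM, where the others lay between 64.4 and 65.6 CPM.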

How the results depend on the processing

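For each of the 10 genes, the direction and the side of the threshold were the same under all 16 alternatives, 1 of which, the totals without the most abundant gene, was chosen after seeing the data. *Egln3* lay between 1.87 and 2.03 on the log2 scale, *Ankrd37* between 0.65 and 0.84, *Egln2* between 0.15 and 0.23 (largest adjusted p = 0.00818) and *Car12* between -0.40 and -0.31. Under each, 9 of the 10 genes passed the test and 1 was a DEG. By glmTreat against a log2 fold change of 1, *Egln3* was again the only DEG among them. Over all genes, the 751 DEGs became 1206 without a filter on low counts and 437 with glmTreat. Leaving out each sample gave 746 to 769 DEGs. In these fits the difference of the *Epas1* to *Hif1a* log2 ratio was 0.108 to 0.18, lowest without vehicle replicate 3, and that of the *Egln3* share was 8.82 to 10.1 percentage points. Both then had p = 0.0571, the smallest an exact test of 3 against 4 allows. In the labels, same-numbered samples share only a number, and whether anything else links them is not given (r of their deviations across genes -0.0699 to 0.0416). With the replicate block, an exact sign-flip test over the 4 pairs gave the same differences, 0.155 and 9.51, at p = 0.125, the smallest it allows. The block left 5643 genes past the test, against 5796 in the fit with no block. With ACGTG alone, 66.7% of the genes with a promoter held a match, against 77.8%. The share of all promoters was then 19.6%, against 43.8%, and that of the promoters of tested genes 25.5%, against 61.9%. Of the 224 counts over the related lists, 213 stayed within 1.5 times of their value, and the others were counts of genes that fell, of 0 to 2. Among the 10 genes, *Ankrd37* had the fewest reads and the largest SE.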

Other observations

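Among the 14 carbonic anhydrases beside *Car12*, *Car6*, the secreted form known from saliva, had the highest level per length in these cells, at 286 ± 7.35 TPM after IL-1β and 273 ± 12.8 TPM with vehicle. It was named after its values were seen. Its abundance was 187, 194, 197 and 189 CPM after IL-1β and 181, 178, 177 and 172 CPM with vehicle, and all IL-1β samples lay above all vehicle samples (log2 fold change 0.12, SE 0.0304, edgeR quasi-likelihood adjusted p = 0.00297).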
